A study of Mus musculus with 2 samples.

Results

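The genes described here encode the proteins of the cytosolic ribosome. Rows of the deposited count table were taken when the gene symbol began with Rpl or Rps and a digit, or was Rplp0, Rplp1, Rplp2 or Rpsa, and symbols with a hyphen or beginning with Rps6k were left out. This gave 94 of the 33963 rows. Of these, 77 were canonical members (31 proteins of the small, 40S, subunit and 46 of the large, 60S, subunit, of which 3 form the P-stalk). The other 17 were paralogs or related rows and are described apart.

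Mouse cells of 5 populations were tagged, pooled into 1 cDNA library and read by single-cell RNA-seq to follow the return of primed stem cells to the naive state. Naive cells (801) were mouse embryonic stem cells (mESCs) with a Rex1-GFP reporter kept in 2iL, that is, inhibitors of MEK and GSK3 with leukemia inhibitory factor (LIF). Primed cells (1826) were mouse epiblast stem cells (mEpiSCs) of the line Oct4GIP, which carries GFP and puromycin resistance driven by Oct4, kept in FGF2 and Activin A. Primed cells given LIF and AICAR, an activator of AMP-activated protein kinase (AMPK), were taken at 8 days (d8, 9627 cells) and at 16 days (d16, 4315 cells), and d16+10p cells (1151) had then been expanded for 10 passages in 2iL. The strain label is 129/Ola. The naive population and the other 4 come from different lines, so that line and state cannot be told apart in a comparison with naive. The d16 cells were split by Dppa5a, a gene of naive pluripotency, into 1278 Dppa5a-high cells (at least 1000 CPM, that is, reads scaled to a total of 1000000 per cell or group) and 3037 Dppa5a-low cells, and 295 d16 cells lay between 500 and 2000 CPM. With 1 sample for each population, and cells being no replicates of it, no test was possible and no p-value is given, and intervals are 95% intervals of the counting error only.

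A ribosome joins a small subunit, which reads the mRNA, to a large subunit, which forms the peptide bond. Most of its proteins are present once in each ribosome, while Rplp1 and Rplp2 are present in several copies, and their genes are among the most strongly expressed of any growing cell. Many of their mRNAs begin with a C followed by a run of pyrimidines (C or T), the 5' terminal oligopyrimidine (TOP) motif, through which mTORC1 and Larp1 control their translation. AMPK, the kinase activated in this study, is known to restrain mTORC1. Some members act outside the ribosome. Rpl5 and Rpl11 bind Mdm2 with the 5S rRNA when ribosome assembly is disturbed, and Rps6 is the substrate of the S6 kinases.

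The start regions of members are shown because they hold the motif through which this family is jointly controlled. Sequences are from RefSeq on GRCm38.p6, each running from 10 bases before to 20 bases after the annotated start, 5' to 3' on the sense strand, with the pyrimidine run in capitals. Rps6, Rps10, Rpl15, Rpl35 and Rpl27a have a long run, and Rpl41 and Rplp0, which were among the members that differed most between populations, have none at this start.
Rps6 (chr4:86857348-86857377, minus strand): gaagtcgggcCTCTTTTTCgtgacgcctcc
Rps10 (chr17:27635225-27635254, minus strand): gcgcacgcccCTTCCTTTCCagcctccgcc
Rpl15 (chr14:18270967-18270996, minus strand): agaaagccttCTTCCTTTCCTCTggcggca
Rpl35 (chr2:39005112-39005141, minus strand): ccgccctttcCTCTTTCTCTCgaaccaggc
Rpl27a (chr7:109519185-109519214, plus strand): cgtgagctcCTCCCTTTTCCCTTTCTgcca
Rpl41 (chr10:128549149-128549178, minus strand): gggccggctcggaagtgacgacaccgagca
Rplp0 (chr5:115559457-115559486, plus strand): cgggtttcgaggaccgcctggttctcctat

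A run was counted when a C followed by at least 4 C or T began within 5 bases of an annotated start, on the sense strand only. It was found at 27 of the 57 members in the promoter table (47.4%), at 17 of 69 mitochondrial ribosomal protein genes (24.6%) and at 5718 of all 27025 genes (21.2%). The missing run at Rpl41 and Rplp0 says only that these letters are not in this window. Members of wide range were found with and without a run. The highest level over the 6 groups was 1.80 and 1.66 times the lowest for Rpl27 and Rpsa, which have none. It was 1.63 and 1.60 times the lowest for Rpl19 and Rpl18, which have one, beside 1.57 for Rplp0 and 1.51 for Rpl41.

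The paralogs Rpl39l and Rpl39 are shown because the first differed several-fold between populations and the second did not, and because reads must tell them apart. Rpl39 lies on chromosome X (37082520 to 37085402, minus strand, GRCm38) and Rpl39l on chromosome 16 (10170226 to 10174911, plus strand). Their coding sequences from GENCODE M21 have 153 bases each, and the 23 bases that differ are in capitals.
Rpl39: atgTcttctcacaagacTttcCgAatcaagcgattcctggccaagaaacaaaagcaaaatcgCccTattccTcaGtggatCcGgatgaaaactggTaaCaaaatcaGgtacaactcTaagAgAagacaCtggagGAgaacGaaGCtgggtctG
Rpl39l: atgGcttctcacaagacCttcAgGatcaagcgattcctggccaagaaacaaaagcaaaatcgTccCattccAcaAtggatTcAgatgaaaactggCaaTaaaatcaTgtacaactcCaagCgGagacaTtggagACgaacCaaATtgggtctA

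The cells held 3179 to 111822 reads each, with a median of 8691 in Dppa5a-low d16 cells and of 10185 to 21551 in the 5 populations. No barcode occurred under more than 1 tag. The tagged populations were mixtures. The summed level of Pou5f1, Sox2 and Nanog was 1065 CPM in naive, 518 in primed, 222 in d8, 1419 in Dppa5a-high d16, 351 in Dppa5a-low d16 and 1120 CPM in d16+10p. The summed level of 5 fibroblast genes (feeder cells were used for primed cells and during treatment) was 455 CPM in Dppa5a-high d16, 484 in d16+10p and 604 in naive, against 1506 in primed, 1160 in d8 and 3230 CPM in Dppa5a-low d16. The 4 macrophage markers summed to 2808 CPM in d8 and to 233 to 881 CPM elsewhere. The 4 epithelial markers summed to 2548 CPM in d8 and to 474 to 1163 CPM elsewhere. For the 4 smooth muscle markers it was 1016 CPM in d8 and 215 to 516 CPM elsewhere. The 4 neural markers were highest in Dppa5a-low d16, at 672 CPM against 122 to 262 CPM elsewhere. In the 589 primed cells with at least 150 CPM of Pou5f1 the fibroblast genes summed to 498 CPM. The part of these other cells in the comparisons below was not tested, apart from the values given for such Pou5f1-rich cells of naive, primed, Dppa5a-high d16 and d16+10p.

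The 77 members took between 10.76% and 13.63% of the reads. In naive cells they took 13.09% (95% interval 13.08 to 13.11), beside 13.05% (13.04 to 13.07) of those of primed and 12.47% (12.46 to 12.47) of those of d8 cells. It was 10.76% (10.75 to 10.77) in Dppa5a-low d16, 11.91% (11.90 to 11.93) in Dppa5a-high d16 and 13.63% (13.62 to 13.65) in d16+10p. It was lowest at d16 and highest after expansion, and primed and naive lay closest together.

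**Figure D1:**
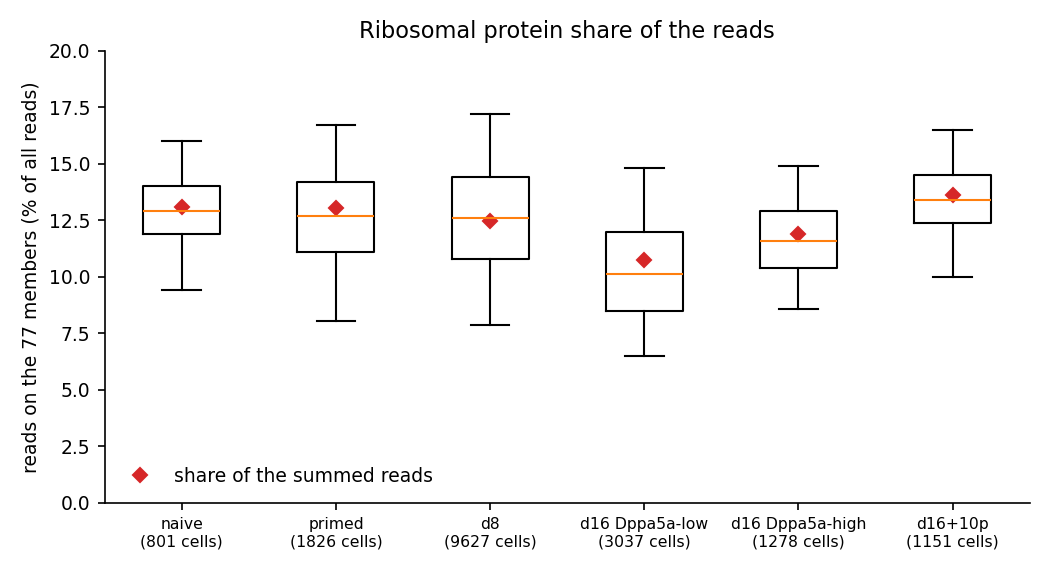
Share of reads on the 77 members (y axis, % of all reads) in 6 groups of cells. Boxes give the quartiles and the median over cells, whiskers the 5th and 95th percentile, and diamonds the share of the summed reads; Dppa5a-low d16 cells have the lowest median (10.1%) and d16+10p cells the highest (13.4%), and the boxes of most groups overlap.

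Single cells varied more than the groups. The median over cells was 12.9% in naive, with quartiles of 11.9% and 14.0%, and 12.7% in primed, with quartiles of 11.1% and 14.2%. In d8 it was 12.6%, with quartiles of 10.8% and 14.4%. Dppa5a-low d16 cells had a median of 10.1% and quartiles of 8.48% and 12.0%, Dppa5a-high d16 cells 11.6% and 10.4% to 12.9%, and d16+10p cells 13.4% and 12.4% to 14.5%. The upper quartile of Dppa5a-low cells thus stayed below the medians of naive, primed, d8 and d16+10p.

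The share was also taken at equal depth, without mitochondrial reads and in Pou5f1-rich cells. With cells thinned to 5000 reads, and shallower cells left out (68 of naive, 271 of primed, 755 of d8, 564 of Dppa5a-low d16, 40 of Dppa5a-high d16 and 69 of d16+10p), it came to 12.9% for naive, 12.8% for primed, 12.6% for d8, 10.4% for Dppa5a-low d16, 11.7% for Dppa5a-high d16 and 13.5% for d16+10p. Of the reads outside the mitochondrial genome, it was 14.1%, 14.0%, 13.3%, 11.7%, 12.9% and 14.6% in the same order. Both left the 2 d16 groups lowest and d16+10p highest. Among cells with at least 150 CPM of Pou5f1, it was 13.2% in naive (547 cells), 13.6% in primed (589), 13.4% in d8 (1123), 12.0% in Dppa5a-low d16 (228), 12.0% in Dppa5a-high d16 (991) and 13.7% in d16+10p (869). In these cells primed lay above naive, and both d16 groups had the same value.

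The small and the large subunit kept their proportion. Genes of 40S proteins took 43.3% of the members' reads in naive, 44.5% in primed, 45.0% in d8, 44.9% in Dppa5a-low d16, 44.5% in Dppa5a-high d16 and 44.5% in d16+10p. Across the 6 groups, the highest level of a member was between 1.09 times (Rpl17) and 1.80 times (Rpl27) its lowest, with a median of 1.33. Over the 4866 genes that reached 50 CPM in a group with at least 100 reads, this ratio had a median of 1.84. It was under 1.5 for 63 of the 77 members and for 1361 of the 4866 genes. The 6 widest ranges were those of Rpl27, Rpsa, Rplp1, Rpl19, Rpl18 and Rpl12, and each of them was lowest in Dppa5a-low d16 cells. Among members with known roles, Rpl5 had 1171 CPM in naive, 1231 in primed, 1134 in d8, 946 in Dppa5a-low d16, 1089 in Dppa5a-high d16 and 1260 CPM in d16+10p. Rpl22, whose protein binds certain RNAs outside the ribosome, had 892, 879, 880, 664, 882 and 967 CPM in that order.

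Members were next compared between pairs of groups, as the log2 ratio of CPM with 1 CPM added to both, and called when the ratio passed 1.5-fold. The background is the same call over all genes that reached 50 CPM in 1 of the groups and 100 reads in both together. All 77 members passed this floor in each of the 6 comparisons. Naive, primed and Dppa5a-high d16 cells each enter several comparisons, which are therefore not independent. A size of 1.2-fold was added after the data were seen, because few members passed 1.5-fold.

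**Figure D2:**
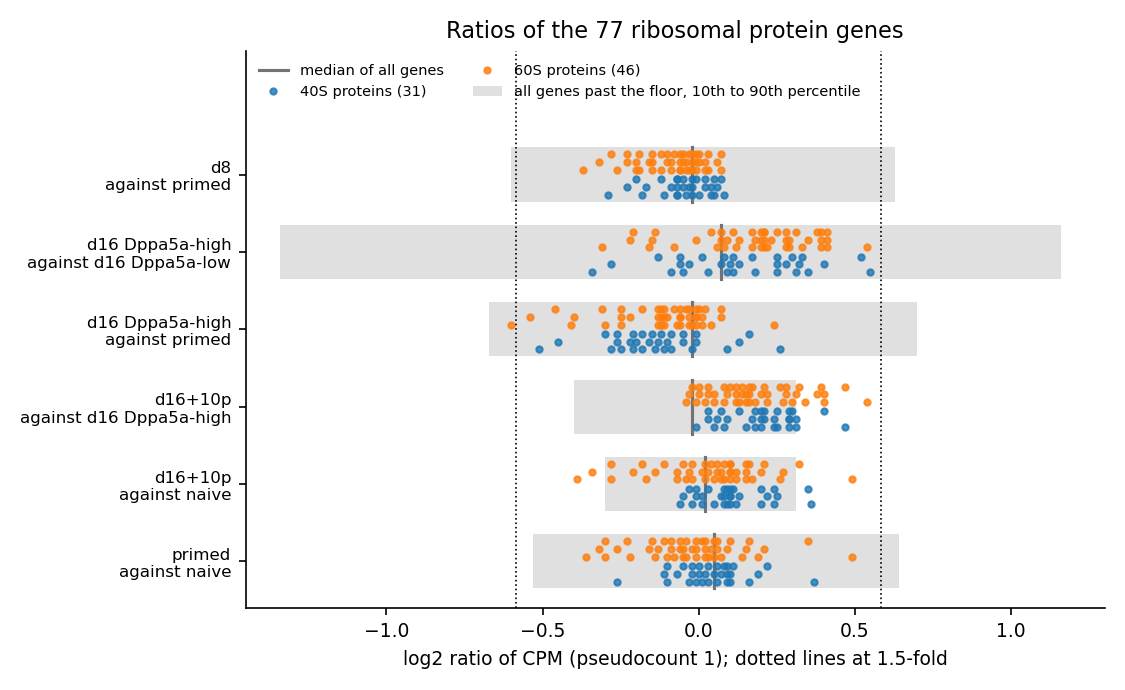
Log2 ratio of CPM (x axis) of each of the 77 members in the 6 comparisons (rows), with 40S proteins in blue and 60S proteins with the P-stalk in orange. Grey bars span the 10th to 90th percentile of all genes past the floor and dotted lines mark 1.5-fold; the members form a narrow band near 0 in each row, and only Rpl41 passes a dotted line, in Dppa5a-high d16 against primed.

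The first 8 days with AICAR and LIF were followed by comparing d8 with primed. At the start of treatment the cells also went from serum-free medium to one with serum and serum replacement, so that reagents and medium cannot be told apart. The members stayed within a narrow band. None of 77 was higher past 1.5-fold (background 11.0% of 3933 genes) and none lower (10.7%). Past 1.2-fold, 0 were higher (25.1%) and 4 lower (26.5%), and the count of 4 ranged from 1 to 14 over the alternatives. The median log2 ratio was -0.05, beside -0.02 over all genes, and turned to 0.02 with TMM scaling and to 0.01 with means over cells.
The 4 were Rpl7a, Rpl21, Rps18 and Rpl11. Rpl7a, a 60S protein, had 907 CPM in primed and 701 CPM in d8 (log2 ratio -0.37, interval -0.39 to -0.35). Rpl11 had 1361 and 1124 CPM (-0.28, -0.29 to -0.26), while its partner Rpl5 had 1231 and 1134 CPM (-0.12, -0.14 to -0.10). Rpl21 is less certain, since its log2 ratio of -0.32 became -0.17 when the reads of its copies were added. Rps18 is less certain too. Copies took 2.42% of the reads of Rps18 and its copies in primed and 6.06% in d8, so that its ratio is nearer to 0 with copies added. Rpl6 followed at -0.26. The ratios of Rps3a1 (0.08, and -0.09 with copies added), Rpl39, Rpl23, Rps24 (each 0.07), Rps19 and Rpl37a (both 0.06) were above 0 but small.

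The d8 cells had fewer Pou5f1 reads (56.8 CPM, against 203 CPM in primed), and 1123 of 9627 d8 cells had 150 CPM or more. Against the 589 Pou5f1-rich primed cells, all d8 cells had a median log2 ratio of -0.11 for the members, and Rpl7a, at -0.60, then passed 1.5-fold.

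At d16, Dppa5a-high cells, in which naive genes have appeared, were compared with the Dppa5a-low cells of the same culture. This was the comparison with the widest differences over all genes, and the members again held together. None was higher past 1.5-fold (background 24.9% of 4373 genes) and none lower (24.1%). Past 1.2-fold, 25 were higher (40.9%) and 3 lower (35.1%). The median log2 ratio was 0.18, beside 0.07 over all genes, with 61 members above 0 and 16 below. Where both groups were restricted to Pou5f1-rich cells, their shares of reads on the members were the same, 12.0% (991 Dppa5a-high cells) and 12.0% (228 Dppa5a-low cells), beside 11.91% and 10.76% over all their cells.
Rpl13, a 60S protein, had 1510 CPM in Dppa5a-high and 1038 CPM in Dppa5a-low cells (log2 ratio 0.54, interval 0.52 to 0.56), and Rpsa, which is also known as the laminin receptor, had 1984 and 1384 CPM (0.52, 0.50 to 0.54). Rpl22, Rpl18 and Rpl10a were each at 0.41. On the other side, Rps27 had 1042 CPM in Dppa5a-high and 1317 CPM in Dppa5a-low cells (-0.34, -0.36 to -0.31), Rpl41, the shortest ribosomal protein, 2532 and 3149 CPM (-0.31, -0.33 to -0.30), and Rps7 912 and 1110 CPM (-0.28, -0.31 to -0.26). Rpl39 and Rpl29 followed at -0.22 and -0.21.
Rps6 had 1341 and 1127 CPM (0.25, 0.23 to 0.27). Of the P-stalk, which recruits elongation factors, Rplp1 (0.33) and Rplp2 (0.31) had higher ratios than Rplp0 (0.11). The fibroblast markers, at 455 and 3230 CPM, and the median reads per cell, at 14255 and 8691, moved with this split, and their part in these ratios was not tested.

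Dppa5a-high d16 cells were then set against the primed cells from which they were derived. Here most members were slightly lower. None was higher past 1.5-fold (background 12.7% of 4047 genes) and 1, Rpl41, was lower (11.9%). Past 1.2-fold, 0 were higher (26.6%) and 11 lower (27.4%), and in all 17 members passed with Pou5f1-rich cells and 17 with thinned cells. The median log2 ratio was -0.11, beside -0.02 over all genes, with 65 members below 0 and 12 above.
Rpl41 had 2532 CPM in Dppa5a-high d16 and 3831 CPM in primed cells (-0.60, -0.61 to -0.58). Rplp0, the base of the P-stalk, had 1229 and 1789 CPM (-0.54, -0.56 to -0.52), Rps20 1878 and 2669 CPM (-0.51, -0.52 to -0.49), and the X-linked Rpl10 927 and 1275 CPM (-0.46, -0.48 to -0.43). Rps7 followed at -0.45. Among Pou5f1-rich cells of both groups, Rpl41 (-0.67), Rplp0 (-0.75) and Rps20 (-0.65) were all lower past 1.5-fold. Among the high ratios were those of Rpl13 (0.24, 0.22 to 0.26), Rps29 (0.16) and Rps23 (0.09).

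Expansion in 2iL was asked about by comparing d16+10p with Dppa5a-high d16 cells. It also came with a change of basal medium, the end of AICAR treatment and a move from feeder cells to gelatin. These changes cannot be told apart. Nearly all members were higher after expansion. None passed 1.5-fold upward (background 2.15% of 3765 genes) or downward (4.17%). Past 1.2-fold, 22 were higher (13.5%) and 0 lower (18.1%). The median log2 ratio was 0.18, beside -0.02 over all genes, with 71 members above 0 and 6 below.
TMM scaling, which shifted every ratio of this comparison by 0.12, gave a median of 0.30, and 47 members then passed 1.2-fold and Rplp0, Rpl41 and Rps7 1.5-fold. Rplp0 had 1791 CPM in d16+10p and 1229 CPM in Dppa5a-high d16 (0.54, 0.52 to 0.57), Rpl41 3506 and 2532 CPM (0.47, 0.45 to 0.49), Rps7 1261 and 912 CPM (0.47, 0.44 to 0.49) and Rps20 2483 and 1878 CPM (0.40, 0.39 to 0.42), and Rplp1 was also at 0.40. Among the low ratios were those of Rpl26 (-0.04), Rpl36 (-0.03), Rpl3 (-0.02) and Rpl13 (-0.01). Rplp0 was thus at 1544 CPM in naive, 1789 in primed, 1611 in d8, 1141 in Dppa5a-low d16, 1229 in Dppa5a-high d16 and 1791 CPM in d16+10p, low in both d16 groups and high elsewhere. Rpl41 was at 3670, 3831, 3633, 3149, 2532 and 3506 CPM in the same order, lowest in the Dppa5a-high cells. Among Pou5f1-rich cells, the log2 ratios of Rplp0 and Rpl41 between d16+10p and Dppa5a-high d16 were 0.56 and 0.46.

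Expanded cells were compared with naive mESCs, also kept in 2iL. The members were nearly equal. None was higher past 1.5-fold (background 2.78% of 3638 genes) and none lower (1.54%). Past 1.2-fold, 6 were higher (12.6%) and 4 lower (12.8%), and the median log2 ratio was 0.08, beside 0.02 over all genes.
Rpl30 stood at 1432 CPM after expansion and at 1016 CPM in naive (0.49, 0.47 to 0.52) and Rps12 at 2249 and 1746 CPM (0.36, 0.34 to 0.38), and Rpl34 was at 0.32 and Rpl13a at 0.27. Rpl32 had 2672 and 3500 CPM (-0.39, -0.41 to -0.37) and Rpl26 1825 and 2310 CPM (-0.34, -0.36 to -0.32), followed by Rpl27 and Rpl35a at -0.28. Rpl38, which is known for its role in the translation of Hox mRNAs, had 794 and 921 CPM (-0.21, -0.24 to -0.18).

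Primed and naive cells had the same median level of the members, with a log2 ratio of 0.01 beside 0.05 over all genes. It was -0.08 with TMM scaling and 0.05 among Pou5f1-rich cells. None was higher past 1.5-fold (background 12.0% of 3914 genes) and none lower (8.51%). Past 1.2-fold, 3 were higher (29.8%) and 4 lower (22.0%).
The 3 were Rpl34, with 1292 CPM in primed and 919 CPM in naive (0.49, 0.46 to 0.52), Rps19, with 2465 and 1910 CPM (0.37, 0.35 to 0.39), and Rpl30, with 1293 and 1016 CPM (0.35, 0.32 to 0.37). Rps27 (0.22) and Rplp0 (0.21) followed. Rps19 is the gene most often mutated in Diamond-Blackfan anemia. Among the lowest ratios were those of Rpl32 (-0.36, -0.38 to -0.35), Rpl27 (-0.32, -0.35 to -0.30), Rpl13 (-0.30, -0.33 to -0.28), Rpl19 (-0.30, -0.32 to -0.28) and Rpl26 (-0.26, -0.28 to -0.24). Among Pou5f1-rich cells Rpl34 reached 0.61 and passed 1.5-fold.

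On the members' own rows, without copies, naive cells had the highest or lowest level of the 6 groups for several of these members. Rpl34 was at 919 CPM in naive and at 1042 to 1292 CPM in the other 5 groups, and Rpl30 at 1016 CPM in naive and at 1111 to 1432 CPM elsewhere. Rpl32 was at 3500 CPM in naive and at 2268 to 2778 CPM elsewhere, and Rpl26 at 2310 CPM and at 1671 to 1932 CPM. The naive level of each of the 4 lay outside the range of the rest, but this is not particular to them. Naive was also the highest group for Rpl13, Rpl19, Rpl27 and Rps18, among others. Some group must be highest and some group lowest for every member. Rpl30 and Rpl35a also split their reads with copies in another way there. Copies took 46.4% of the reads of Rpl30 and its copies in naive and 37.4% to 39.3% elsewhere, and 20.8% of those of Rpl35a in naive and 31.7% to 33.4% elsewhere. With copies added, the log2 ratio of d16+10p to naive went from 0.49 to 0.28 for Rpl30 and from -0.28 to -0.03 for Rpl35a. It stayed at -0.39 for Rpl32 and -0.34 for Rpl26, and was 0.31 for Rpl34. With copies added, naive was no longer the lowest group for Rpl30, since it then lay above Dppa5a-low d16.

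Reads on copies bear on the whole family. Ribosomal protein genes have many processed pseudogenes, and 1083 rows of the table matched a member with at least 90% identity over at least 100 bases. They held 22.3% of the reads of members and copies in naive, 22.3% in primed, 21.7% in d8, 21.9% in Dppa5a-low d16, 22.3% in Dppa5a-high d16 and 22.4% in d16+10p. This share hardly differed between groups, so that the members' medians moved by 0.01 at most when copies were added. Among the members with most copies, 72.5% to 72.8% of the reads of Rps2 and its copies fell on copies in each group, and 45.7% to 46.5% of those of Rpl7a.

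Members with and without the pyrimidine run had like medians. The median log2 ratio of the 27 with a run and of the 30 without one was -0.06 and -0.04 in d8 against primed, 0.11 and 0.17 in Dppa5a-high against Dppa5a-low d16, and -0.12 and -0.12 in Dppa5a-high d16 against primed. It was 0.21 and 0.19 in d16+10p against Dppa5a-high d16, 0.08 and 0.09 in d16+10p against naive, and -0.04 and 0.03 in primed against naive. These are mRNA levels, and translation was not measured.

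The paralogs behaved differently from the members. Of the 17 related rows, Rpl32l, Rpl37rt, Rpl6l, Rps12l1, Rps27rt, Rps3a2 and Rps3a3 were at least 96.0% identical to a member and shared at least 94 bases in a row with it, so that reads cannot be divided between them with certainty and their levels are left out. Rps19bp1, a protein that binds Rps19, and Rps23rg1 are not ribosomal paralogs. They had 70.2 to 98.3 CPM and 21.1 to 28.2 CPM in the 6 groups. Rpl3l, a paralog of striated muscle, had 2 to 17 reads in each group and was not measurable at this depth.

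Rps4l, Rpl10l and Rpl39l were high in naive cells, low in primed and d8 cells, and high again in Dppa5a-high d16 and d16+10p cells. Rpl10l is known from the testis, where it stands in for X-linked Rpl10 during meiosis, and Rpl39l from male germ cells. Rps4l is annotated in GENCODE M21 as a transcribed processed pseudogene on chromosome 6 (148354656 to 148355598), and Rpl10l lies on chromosome 12 (66283379 to 66284401). Their parents Rps4x, Rpl10 and Rpl39 are on chromosome X. Identity to the parent is 79.7% for Rps4l, 84.3% for Rpl10l and 84.8% for Rpl39l, and no more than 38 bases in a row are shared.

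**Figure D3:**
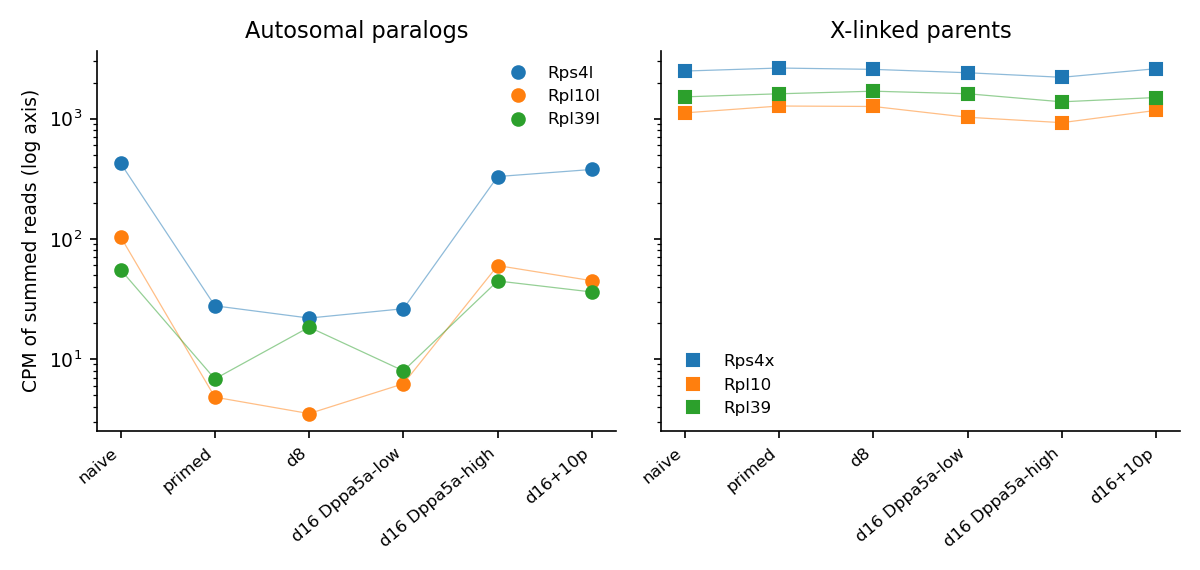
Levels (y axis, CPM of summed reads, log axis) of 3 autosomal paralogs (left) and of their X-linked parents (right) in 6 groups of cells (x axis); lines join the groups to guide the eye. Each paralog is higher in naive, Dppa5a-high d16 and d16+10p than in primed, d8 and Dppa5a-low d16, while each parent stays within 927 to 2641 CPM.

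Rps4l had 426 CPM in naive, 27.7 in primed, 21.9 in d8, 26.2 in Dppa5a-low d16, 330 in Dppa5a-high d16 and 378 CPM in d16+10p. With 1 summed level for each group, those of naive, Dppa5a-high d16 and d16+10p were each above those of the other 3 groups. Its log2 ratio was -3.90 (interval -4.05 to -3.84) in primed against naive, 3.53 (3.47 to 3.68) in Dppa5a-high d16 against primed and 3.60 (3.55 to 3.76) in Dppa5a-high against Dppa5a-low d16. Across all settings, the last lay between 2.89 and 3.84. The parent Rps4x had 2492, 2641, 2574, 2413, 2211 and 2608 CPM in the order naive, primed, d8, Dppa5a-low d16, Dppa5a-high d16 and d16+10p. Rps4l therefore made up 14.6% of the reads of the pair in naive (14.3 to 14.9), 13.0% in Dppa5a-high d16 and 12.7% in d16+10p, but 1.04% in primed and 0.845% in d8.

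Rpl10l had 104 CPM in naive, 4.81 in primed, 3.51 in d8, 6.22 in Dppa5a-low d16, 59.9 in Dppa5a-high d16 and 44.8 CPM in d16+10p. The same 3 groups are high, but d16+10p was lower than naive (log2 ratio -1.19, -1.32 to -1.11). In Dppa5a-high d16 against primed the log2 ratio was 3.39 (3.38 to 3.91), and lay between 2.24 and 3.41 across settings. Rpl10l made up 8.49% of its pair in naive, 0.376% in primed, 0.277% in d8, 6.07% in Dppa5a-high d16 and 3.68% in d16+10p. Rpl10 itself was lowest in the Dppa5a-high d16 cells, at 927 CPM.

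Rpl39l had 55.4 CPM in naive, 6.82 in primed, 18.4 in d8, 7.96 in Dppa5a-low d16, 44.6 in Dppa5a-high d16 and 36.1 CPM in d16+10p. Rpl39l reached the floor of 50 CPM in naive cells only, so that only its ratios to naive passed the floor. Unlike the other 2 paralogs it was higher in d8 than in primed (log2 ratio 1.31, 1.22 to 1.65). In Dppa5a-high d16 against primed its log2 ratio was 2.54 (2.48 to 2.94; between 1.70 and 2.87 across settings), and between primed and naive -2.85 (-3.26 to -2.80). It made up 3.52% of the reads of Rpl39l and Rpl39 in naive, 0.421% in primed, 1.07% in d8, 3.12% in Dppa5a-high d16 and 2.35% in d16+10p.

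The level of all 3 paralogs went with the Dppa5a level of the cell within every tagged population. In naive, the 570 cells with at least 1000 CPM of Dppa5a had 503 CPM of Rps4l (492 to 515) and the 231 others 70.6 CPM (61.5 to 80.6). In primed, 62 cells reached 1000 CPM of Dppa5a, and these had 282 CPM of Rps4l (249 to 318) against 18.8 CPM (17.2 to 20.5) in the other 1764. In d8, 72 such cells had 181 CPM (161 to 202) and the other 9555 had 20.4 CPM (19.8 to 21.1). Whether the 62 primed and 72 d8 cells carried a wrong tag or were doublets across populations was not tested. In d16+10p, the 926 Dppa5a-rich cells had 411 CPM (403 to 419) and the other 225 had 123 CPM (111 to 136).

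**Figure D4:**
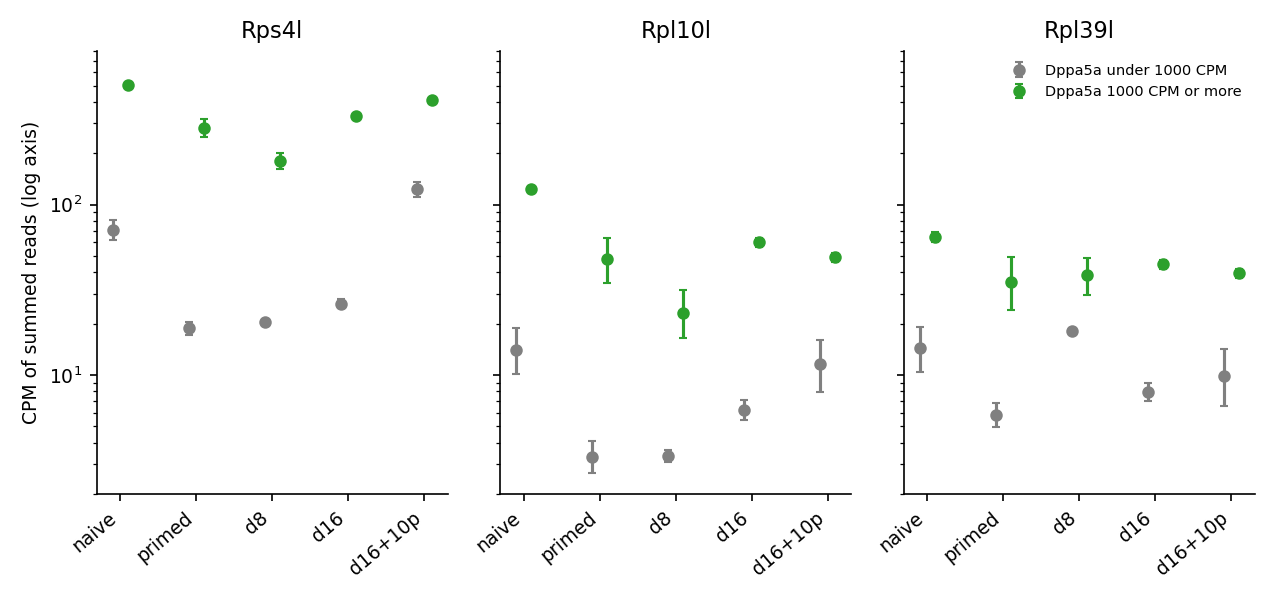
Levels (y axis, CPM of summed reads, log axis) of Rps4l, Rpl10l and Rpl39l in cells with at least 1000 CPM of Dppa5a (green) and under it (grey) in each tagged population (x axis); bars are 95% counting intervals. The green point lies above the grey point in each population and for each gene, from 38.3 against 18.2 CPM (Rpl39l, d8) upward.

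Rpl10l and Rpl39l followed the same order. Rpl10l had 123 and 14.0 CPM in Dppa5a-rich and other cells of naive, 47.6 and 3.31 CPM in primed, 23.0 and 3.32 CPM in d8, 59.9 and 6.22 CPM in d16 and 49.0 and 11.5 CPM in d16+10p. Rpl39l had 64.4 and 14.3 CPM in naive, 34.9 and 5.83 CPM in primed, 38.3 and 18.2 CPM in d8, 44.6 and 7.96 CPM in d16 and 39.4 and 9.80 CPM in d16+10p. The share of reads on the 77 canonical members showed no such gap, at 13.2% and 12.7% in naive, 12.4% and 13.1% in primed, 12.4% and 12.5% in d8, 11.9% and 10.8% in d16 and 13.7% and 13.1% in d16+10p.

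The share of cells with a read separated the same groups. With cells thinned to 5000 reads and shallower cells left out, 69.7% of naive cells had an Rps4l read (66.2 to 73.0), 72.7% of Dppa5a-high d16 cells (70.1 to 75.2) and 73.8% of expanded d16+10p cells (71.0 to 76.4). The shares were 11.3% in primed, 9.42% in d8 and 9.50% in Dppa5a-low d16, and without thinning 75.4% in naive, 89.2% in Dppa5a-high d16, 84.8% in d16+10p and 21.6% in primed. Naive thus had the highest Rps4l level of the 3 high groups but not the highest share of cells. Since reads from free RNA can fall in any cell, the shares of the last 3 groups cannot be told from background. For Rpl10l, 34.1% of naive, 20.4% of Dppa5a-high d16 and 16.3% of expanded d16+10p cells held one after thinning, against 1.99% of primed and 1.58% of d8 cells, and 4.41% of Dppa5a-low d16 cells had one without thinning. For Rpl39l, the shares were 20.5%, 15.8% and 13.0%, against 2.32%, 5.43% and 3.19%.

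The remaining 4 paralogs differed less. Rps27l, a target of p53, had 874 CPM in naive, 1013 in primed, 978 in d8, 648 in Dppa5a-low d16, 1138 in Dppa5a-high d16 and 895 CPM in d16+10p. It passed 1.5-fold in Dppa5a-high against Dppa5a-low d16 (0.81, 0.79 to 0.84), where its parent Rps27 had the lowest ratio of all members (-0.34), so that Rps27l made up 52.2% of the pair in Dppa5a-high and 33.0% in Dppa5a-low cells. Rpl7l1 had 136, 97.8, 66.3, 63.0, 131 and 128 CPM in the order naive, primed, d8, Dppa5a-low d16, Dppa5a-high d16 and d16+10p, and its ratio passed 1.5-fold in the same comparison (1.05, 0.98 to 1.14). Rpl22l1, a paralog of Rpl22, went the other way. Its level was 527, 502, 458, 476, 422 and 378 CPM in that order, lowest in d16+10p, where it made up 28.1% of the pair against 37.1% in naive. Rpl36al, the autosomal paralog of X-linked Rpl36a, had 455, 428, 391, 296, 403 and 494 CPM and kept 26.9% to 32.0% of the reads of its pair in all groups.

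The 4 X-linked members Rps4x, Rpl10, Rpl36a and Rpl39 had a median log2 ratio of -0.24 in Dppa5a-high d16 against primed, beside -0.11 over the 77, and of -0.14 in Dppa5a-high against Dppa5a-low d16, beside 0.18. Rpl36a was the exception in the second, at 957 CPM in Dppa5a-high and 803 CPM in Dppa5a-low cells. In d16+10p against naive the 4 had a median of 0.07.

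Other lists of ribosome and translation genes, set beside the members, had wider ranges between groups. Over the 6 groups the ratio of highest to lowest level had a median of 2.42 for 38 ribosome biogenesis factors, 1.69 for 61 mitochondrial ribosomal proteins and 1.39 for 6 elongation factors, beside 1.33 for the members. Ribosome biogenesis factors process the rRNA and assemble the subunits in the nucleolus. The 42 factors of the list summed to 12265 CPM in naive, 10094 in primed, 6600 in d8, 4844 in Dppa5a-low d16, 10636 in Dppa5a-high d16 and 12768 CPM in d16+10p. In Dppa5a-high against Dppa5a-low d16, 26 of the 33 that passed the floor were higher past 1.5-fold (background 24.9%) and 0 lower (24.1%). Their median log2 ratio was 1.07, beside 0.18 for the ribosomal proteins. In d8 against primed, 14 of 34 were lower (10.7%) and 0 higher (11.0%), with a median of -0.47 beside -0.05. Dkc1, the pseudouridine synthase of H/ACA particles, had 314 CPM in naive, 181 in primed, 90.5 in d8, 73.2 in Dppa5a-low d16, 320 in Dppa5a-high d16 and 354 CPM in d16+10p, and had the largest ratio of the list in both comparisons (2.12 and -0.99). The helicase Ddx21 (1.68) and Gar1 (-0.88), a partner of Dkc1, were next, while Imp3 was at -0.12 and -0.05 and Sbds, which releases Eif6 from the 60S subunit, at 0.20 and 0.39.
In Dppa5a-high d16 against primed, 2 of 34 factors were higher (background 12.7%) and 1 lower (11.9%), with a median of 0.12. In d16+10p against naive, 0 of 38 passed in either direction, near the backgrounds of 2.78% higher and 1.54% lower (median 0.07). The largest ratios were Dkc1 (0.82) and Rrp1b (0.65), with Utp14a (-0.73) and Ebna1bp2 (-0.37) on the other side, and Gar1 (0.48) and Rrp1b (0.40), with Nob1 (-0.37) and Nop2 (-0.26). In d16+10p against Dppa5a-high d16, 0 of 37 passed, near the backgrounds of 2.15% higher and 4.17% lower. Utp14a (0.55), Utp4 (0.51), Noc2l (-0.32) and Ltv1 (-0.20) were the most extreme. In primed against naive 3 of 37 were lower, near the background of 8.51%, and 0 higher (12.0%), with a median of -0.17. Dkc1 (-0.79) and Nip7 (-0.67) were lowest and Gar1 (0.43) and Utp14a (0.39) highest.

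**Figure D5:**
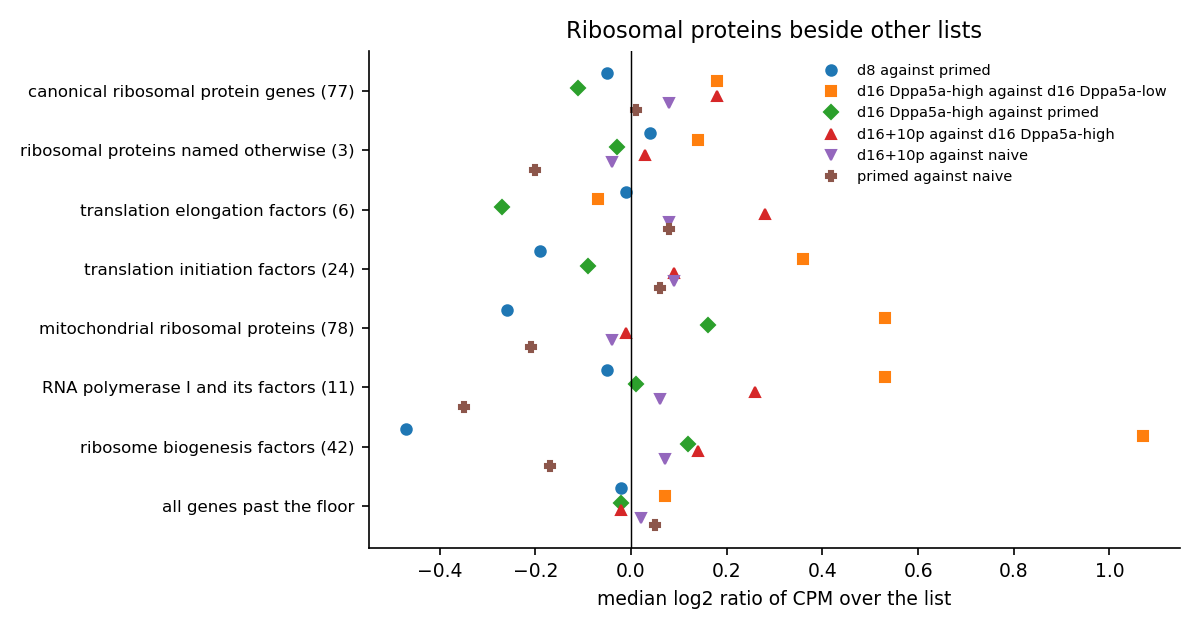
Median log2 ratio of CPM (x axis) of 7 gene lists and of all genes past the floor (rows, with the size of the list in brackets, of which the genes past the floor enter the median) in the 6 comparisons (symbols). The ribosomal proteins stay between -0.11 and 0.18, while ribosome biogenesis factors range from -0.47 (d8 against primed) to 1.07 (Dppa5a-high against Dppa5a-low d16).

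RNA polymerase I, which transcribes the rRNA genes, had 3 of 6 genes higher (background 24.9%) and 0 lower (24.1%) past 1.5-fold in Dppa5a-high against Dppa5a-low d16 (median 0.53). Tcof1 had 127 and 47.2 CPM (1.41, 1.34 to 1.52) and Rrn3, the factor that recruits the polymerase, 61.6 and 24.1 CPM (1.32, 1.23 to 1.48), while Ubtf and Polr1c were both at 0.25. In primed against naive, 3 of 7 were lower (8.51%) and 0 higher (12.0%). Rrn3 was at -1.10 and Polr1a at -0.62, and Polr1d (0.14) and Taf1d (-0.02) were highest. Against primed, Dppa5a-high d16 cells had Rrn3 (1.08) and Tcof1 (0.61) as the 2 of 6 higher past 1.5-fold (12.7%), and in d8 against primed Tcof1 (-0.72) was the 1 of 5 that was lower (10.7%). None of 7 passed in d16+10p against naive or against Dppa5a-high d16, where at most 4.17% of all genes passed in either direction.

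Of 24 initiation factors, 7 were higher, near the background of 24.9%, and 0 lower (24.1%) past 1.5-fold in Dppa5a-high against Dppa5a-low d16 (median 0.36). Eif2s2, the beta subunit of eIF2, had 1214 CPM in naive, 437 in primed, 336 in d8, 253 in Dppa5a-low d16, 1124 in Dppa5a-high d16 and 1000 CPM in d16+10p, high in the same 3 groups as the paralogs Rps4l, Rpl10l and Rpl39l. The helicase Eif4a1 had a log2 ratio of 1.22 there, and Eif3h (-0.51) and Eif3f (-0.36) were lowest. Of 6 elongation factors and their partners 1 was lower past 1.5-fold in this comparison (24.1%) and 0 higher (24.9%). It was Tpt1, a classical TOP mRNA, with 1485 and 2432 CPM (-0.71, -0.73 to -0.69). Eef1a1 (-0.24) followed, and Eef1d (0.47) and Eef1b2 (0.22) were highest. In Dppa5a-high d16 against primed, Tpt1 (-0.70) was again the 1 of 6 that was lower (background 11.9%), with Eef1a1 at -0.41. Of the 24 initiation factors, 2 were higher past 1.5-fold (12.7%), Eif2s2 (1.36) and Eif4a2 (0.64), and 1 lower (11.9%), Eif3l (-0.63). In primed against naive, Tpt1 (0.65) was the 1 of 6 that was higher (background 12.0%). Eif2s2 (-1.47) and Eif4e (-0.69) were the 2 of 24 that were lower, near the background of 8.51%. Eif5a (-0.63) was the 1 of 24 that was lower in d8 against primed (background 10.7%). In d16+10p against naive it was Eif4e (-0.63), also 1 of 24 (background 1.54%). No gene of either list passed in d16+10p against Dppa5a-high d16 (background 2.15% higher and 4.17% lower).

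Mitochondrial ribosomal proteins, which translate the mitochondrial genome, numbered 78. In Dppa5a-high against Dppa5a-low d16, 22 of the 51 past the floor were higher (background 24.9%) and 2 lower (24.1%; median 0.53). Mrpl15 (1.46) and Mrps31 (1.11) were highest and Mrps21 (-0.98) and Mrps6 (-0.77) lowest. In d16+10p against naive, 1 of 58, Mrpl9 (0.80), was higher (background 2.78%) and 0 lower (1.54%), with a median of -0.04. In d8 against primed, 1 of 44, also Mrpl9 (-0.77), was lower (10.7%) and 0 higher (11.0%). Between Dppa5a-high d16 and primed, 6 of 52 were higher, near the background of 12.7%, and 1, Mrps21 (-0.94), lower (11.9%). In primed against naive, 2 of 58 were higher (12.0%), Mrps21 (1.18) and Mrpl9 (1.01), and 4 lower (8.51%). None of 55 passed in d16+10p against Dppa5a-high d16, near the backgrounds of 2.15% higher and 4.17% lower. The mTORC1 branch had 7 genes past the floor in the d16 comparison. Past 1.5-fold, 2 of them were higher, near the background of 24.9%, and 0 lower (24.1%). Eif4ebp1, the inhibitor of cap binding that mTORC1 phosphorylates, had 246 and 76.2 CPM (1.68, 1.62 to 1.76), and Eif4ebp2 had a log2 ratio of 0.60. Rheb (0.03) and Rps6kb1 (0.19) were lowest. In primed against naive, Eif4ebp1 had 193 and 521 CPM (-1.43), and Ddit4, an inhibitor of mTORC1, 156 and 93.3 CPM (0.74). They were the 1 of 6 that was lower (8.51%) and the 1 that was higher (12.0%). In d16+10p against Dppa5a-high d16, Eif4ebp1 (0.67) was the 1 of 7 higher (2.15%) and Ddit4 (-0.79) the 1 lower (4.17%) past 1.5-fold. In d8 against primed Eif4ebp1 (-0.59) was the 1 of 6 that was lower (10.7%). Fau and Rack1, ribosomal components with other symbols, stayed within -0.20 to 0.29 in all 6 comparisons.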

How the data were processed

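The authors captured tagged cells on BD Rhapsody and amplified cDNA by TAS-Seq. Per the submitters' processing notes and the methods, reads were trimmed with cutadapt 2.10 and mapped with Bowtie2 2.3.4.1 to Ensembl cDNA and ncRNA (GRCm38.p6, release 100). Counts were deposited by the authors as raw, unscaled reads for each gene symbol in each cell, after removal of barcodes below the knee and of tag doublets. Collapsing of molecules is not described, so counts were treated as reads. Intervals cover counting error only.

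Here the 17720 cells (307121033 reads) were summed by tag and scaled to CPM. Ratios are log2 of CPM plus 1. Ratio intervals are exact binomial intervals without this addition, and can lie beside the ratio of a low gene. Shares have Clopper-Pearson intervals and levels exact Poisson intervals. Members and lists were chosen with earlier results of these data known. The text names the 5 members with the largest ratio in each direction, 9 members with known roles, all paralogs, and, of each other list, the 2 most extreme genes either way. A few genes that this rule names are not reported here. Positions and coding sequences are from GENCODE M21 and starts from RefSeq (GRCm38.p6), where 57 of 77 members matched. Copies were found with BLAST 2.17.0. Python 3.11.15, pandas 2.3.3, scipy 1.17.1, R 4.3.3 and edgeR 4.0.16 (TMM factors) were used. On sums simulated with counting error only, for Dppa5a-high d16 against primed (3544 genes), 95.3% of intervals held the true ratio. All 200 changed genes passed 1.5-fold, but every planted change was larger than that. Spread between cells or samples was not simulated, so that this checks the calculation only.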

Additional observations from a re-analysis of the deposited data

How the results depend on the processing

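No paired analysis was possible because each population was 1 sample, and no sample could be left out. The 11 alternatives were tried in place of the reported one, and the sums with copies added and the 1.2-fold size were chosen after seeing the data. Of 60 alternative medians of the 77 members, 46 moved by less than the counting error, and of 60 counts past 1.5-fold, 54 were the same. The cause of the others was not tested. In d8 against primed the median of -0.05 turned to 0.01 with means over cells and to 0.02 with TMM scaling, was -0.01 in thinned cells and -0.11 with Pou5f1-rich primed cells, with 1 member past 1.5-fold. In Dppa5a-high against Dppa5a-low d16 it was 0.22 with means over cells (2 members past 1.5-fold, Rpl13 among them), 0.21 where Dppa5a-high cells alone were restricted to Pou5f1-rich cells and 0.20 in thinned cells. In Dppa5a-high d16 against primed it was -0.08 with means over cells and -0.15 with Pou5f1-rich cells, where 3 members passed 1.5-fold, against 0 in thinned cells. TMM scaling gave 0.30 in d16+10p against Dppa5a-high d16, with 3 members past 1.5-fold, 0.11 in d16+10p against naive and -0.08 in primed against naive. The last was -0.01 with means over cells and 0.05 with Pou5f1-rich cells, with 1 member past 1.5-fold. Past 1.2-fold, 52 of 60 counts were the same, and the count of 4 in d8 against primed ranged from 1 to 14, that of 11 in Dppa5a-high d16 against primed reached 17 and that of 22 in d16+10p against Dppa5a-high d16 reached 47 with TMM scaling. With 1 sample per population, no difference here was checked against replicates.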
